A study of Mus musculus with 16 samples.

Results

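The genes described here encode the aminoacyl-tRNA synthetases of mouse quadriceps muscle, cytosolic and mitochondrial. They were chosen by symbol: genes of the count table whose symbol is a capital letter followed by ars, arsa, arsb or ars2, together with Eprs and Ears2. The rule uses no measured value, and 36 of 13320 genes are described. Of these, 20 are cytosolic (Aars, Cars, Dars, Eprs, Farsa, Farsb, Gars, Hars, Iars, Kars, Lars, Mars, Nars, Qars, Rars, Sars, Tars, Vars, Wars and Yars). The other 16, whose symbols end in 2, are mitochondrial (Aars2, Cars2, Ears2, Fars2, Hars2, Iars2, Lars2, Mars2, Nars2, Pars2, Rars2, Sars2, Tars2, Vars2, Wars2 and Yars2). Kars and Gars, for lysine and glycine, each supply both compartments from the same gene and are counted with the cytosolic set. All 36 were measured in every library, with 51 to 34208 reads per gene and library, and none was removed by a filter on low counts.

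A synthetase joins an amino acid to its matching tRNA at the cost of ATP, and the charged tRNA is then used by the ribosome to add that amino acid to a protein. The cytosolic enzymes serve the ribosomes of the cytoplasm. The mitochondrial enzymes are also encoded in the nucleus, are imported, and serve the ribosomes inside mitochondria, which make core subunits of the respiratory chain. Several cytosolic synthetases are bound to scaffold proteins in a multisynthetase complex. When charged tRNA runs short, the kinase GCN2 phosphorylates the initiation factor eIF2 and translation of the transcription factor ATF4 increases, and many cytosolic synthetase genes are known ATF4 targets in mammalian cells. In muscle, a tissue that holds much of the body's protein, the balance of protein synthesis and breakdown sets fibre mass.

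Quadriceps RNA of male CD2F1 mice, which were injected or operated on at 8 weeks of age, was sequenced in 16 libraries, 4 in each of 4 groups. The C26 line derives from a colon carcinoma of mice and is widely used to model cancer cachexia, the loss of muscle in tumour bearers. The splenic C26 group received these cells in the spleen, a route used to seed the liver, and its comparison group, sham, was operated on and given saline. The subcutaneous C26 group received the cells under the skin, and its comparison group is labelled control, with no statement of what it was given. The splenic C26 and sham titles share a prefix and the subcutaneous C26 and control titles share another, whose meaning the labels do not give. No transgene or deleted gene is named for any group. The number of weeks between injection and collection is not stated. Nothing in the labels ties each library to an animal of its own, so p-values here reflect variation among the sequenced samples, and that variation may be technical.

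Each library held 25.9 to 34.9 M counts. Levels are given as CPM, read counts scaled to library size after TMM adjustment, and differences are log2 fold changes with their standard errors (SE) from edgeR's quasi-likelihood test, adjusted by the Benjamini-Hochberg method over all 13320 genes, with a threshold of 0.05. All 10 skeletal muscle fibre markers were measured, and their summed level lay between 117000 and 276000 CPM in every library. Markers of other cells were unevenly spread. The summed level of 6 fibro-adipogenic progenitor markers was 365 to 1240 CPM in splenic C26, against 1450 to 1800 CPM in sham, and 415 to 800 CPM in subcutaneous C26, against 1130 to 2050 CPM in control. Of these 6 genes, 4 fell and 0 rose in splenic C26. In subcutaneous C26 3 fell and 1, Ly6a, rose. The collagen genes Col3a1 and Col1a1 fell most in both comparisons. The 8 neutrophil markers summed to 3.21 to 172 CPM in splenic C26, against 0.581 to 0.823 CPM in sham, where 3 of the 8 were at 0 in every library. In subcutaneous C26 they summed to 2.32 to 26.8 CPM, against 0.617 to 46.8 CPM in control. Albumin (Alb), a hepatocyte marker, reached 76.2 CPM in the first splenic C26 library and 16.5 to 127 CPM in the control libraries, but no more than 2.25 CPM elsewhere. The neutrophil gene Ngp reached 45.8 CPM in the third splenic C26 library and 11.8 CPM in control replicate 1, and the proliferation marker Mki67 was at 52.3 CPM in subcutaneous C26 replicate 4. The 3 red blood cell markers measured summed to 11.6 to 46.0 CPM in splenic C26, against 4.04 to 5.72 CPM in sham, and to 8.60 to 131 CPM in subcutaneous C26, against 3.70 to 14.1 CPM in control. The 6 endothelial markers summed to 236 to 431 CPM in splenic C26, against 265 to 324 CPM in sham, and to 192 to 252 CPM in subcutaneous C26, against 313 to 370 CPM in control. Counts of synthetases are also given without splenic C26 replicates 1 and 3, control replicate 1 and subcutaneous C26 replicate 4, an alternative chosen after the data were seen. It keeps control replicates 2, 3 and 4, which hold Alb at 24.6 to 127 CPM, because no control library was free of it. The part of other cells in the synthetase values was otherwise not tested.

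In splenic C26 muscle, 14 of the 20 cytosolic synthetase genes rose, 0 fell and 6 did not pass the test. Over all genes tested, 28.1% rose and 23.9% fell in this comparison. The median log2 fold change of the cytosolic set was 0.60 (range -0.09 to 1.92), against -0.03 over all genes. In the mitochondrial set 1 gene rose, 5 fell and 10 did not pass, with a median of -0.24 (range -0.72 to 0.51). Without splenic C26 replicates 1 and 3, control replicate 1 and subcutaneous C26 replicate 4, 14 cytosolic genes rose, 2 mitochondrial genes rose and 3 fell. In bulk RNA of a whole muscle, fewer cells of a type and less RNA per cell cannot be told apart. The levels of every member in every library are drawn in the heatmap of library values.

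**Figure D1:**
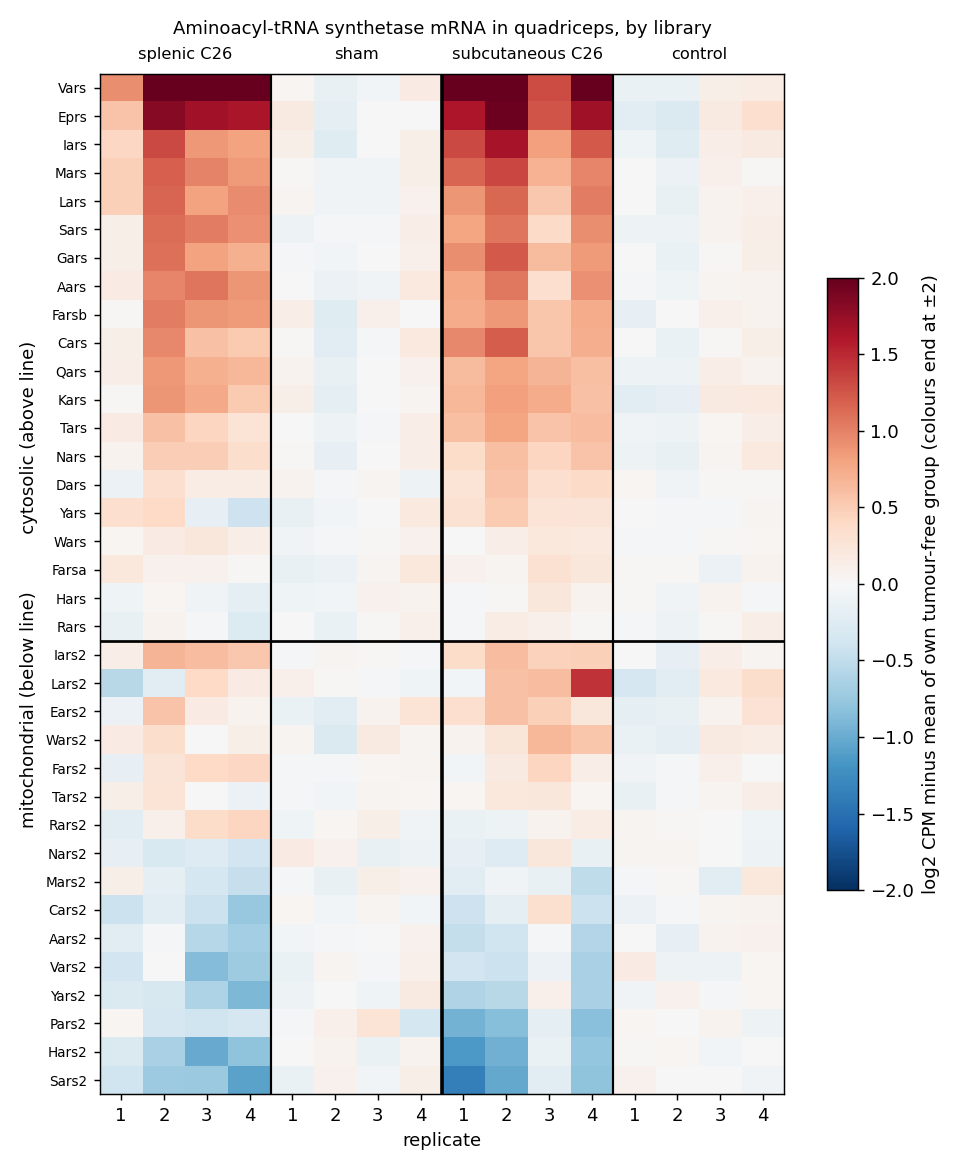
Each row is a synthetase gene and each column a library, grouped as splenic C26, sham, subcutaneous C26 and control. Colour gives the log2 CPM minus the mean of the library's own tumour-free group, with the scale ending at 2 and -2. The upper rows, from Vars to Nars, are red in the tumour libraries, mostly faintest in splenic C26 replicate 1, and the lowest rows, Hars2 and Sars2, are blue.

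Vars, which charges valine tRNA (chromosome 17, 35000987 to 35016322, plus strand, mm10), changed most. Its level was 70.4, 182, 155 and 153 CPM in the 4 splenic C26 libraries, against 38.1, 33.5, 35.6 and 41.3 CPM in the sham libraries. The groups did not overlap, and splenic C26 replicate 1 stood well below the other 3. The means were 140 ± 48.3 and 37.1 ± 3.34 CPM (SD, n = 4 each), a log2 fold change of 1.92 ± 0.27 (adjusted p = 0.000128). Eprs (chromosome 1, 185363044 to 185428360, plus strand) encodes a bifunctional enzyme that charges both glutamate and proline tRNA. It was measured at 427, 1020, 924 and 891 CPM in splenic C26, against 325, 251, 290 and 290 CPM in sham. Again no splenic C26 library reached down to the sham range, and the log2 fold change was 1.5 ± 0.24 (adjusted p = 0.000311). Mars, the methionine enzyme (chromosome 10, 127296221 to 127311786, minus strand), stood at 101, 166, 144 and 131 CPM in splenic C26, against 73.8, 68.6, 68.9 and 78.8 CPM in sham. Its log2 fold change was 0.90 ± 0.15 (adjusted p = 0.000431). Exons of Mars overlap those of Ddit3, the gene of the transcription factor CHOP. Ddit3, named here because of this overlap after its values were seen, fell in both tumour comparisons, by 0.86 and 0.89 on the log2 scale, while Mars rose, and the strand setting of the read counting is not given in the sources used here.

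At the lower end of the cytosolic genes that rose stood Tars and Nars. Tars, for threonine, had 60.6, 81.5, 73.0 and 65.3 CPM in splenic C26, against 54.2, 50.4, 53.2 and 59.5 CPM in sham, a log2 fold change of 0.37 ± 0.11 (adjusted p = 0.0117). Tarsl2, a relative of Tars outside the symbol rule, had 63.2 to 93.2 CPM in splenic C26, against 91.8 to 114 CPM in sham. Its log2 fold changes were -0.39 ± 0.20 in splenic C26 and -0.44 ± 0.20 in subcutaneous C26, which did not pass (adjusted p = 0.114 and 0.0771). The values of Tars are therefore not those of all threonine synthetase mRNA. Nars, the asparagine enzyme, had 126, 169, 170 and 154 CPM in splenic C26, against 122, 108, 121 and 131 CPM in sham. Here the groups overlapped, through splenic C26 replicate 1, and the log2 fold change was 0.36 ± 0.12 (adjusted p = 0.0245). The call of Nars was lost without sham replicate 2 or 3 and without splenic C26 replicate 2 or 3, with adjusted p of up to 0.244 over all alternatives. Both genes that serve the 2 compartments rose. Gars, the glycine enzyme, stood at 80.9, 160, 130 and 122 CPM in splenic C26, against 72.8, 71.6, 74.1 and 79.7 CPM in sham, a log2 fold change of 0.72 ± 0.17 (adjusted p = 0.00311). Kars, the lysine enzyme, was measured at 105, 191, 175 and 148 CPM in splenic C26, against 112, 90.8, 104 and 107 CPM in sham, and rose by 0.58 ± 0.16 (adjusted p = 0.00908). The lowest splenic C26 value of Kars lay inside the sham range. Without Kars and Gars, 12 of 18 cytosolic genes rose. The remaining 7 that rose were Iars, Lars, Sars, Aars, Farsb, Qars and Cars, for isoleucine, leucine, serine, alanine, phenylalanine, glutamine and cysteine, with log2 fold changes of 0.57 (Cars) to 0.88 (Iars). Aars shares 13.1% of its 75-base stretches with the measured gene Exosc6. With upper-quartile scaling the calls of Tars, Nars and Cars were lost.

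Mean log2 levels over the 20 cytosolic genes, relative to the sham mean, were 0.20, 0.85, 0.67 and 0.57 in the 4 splenic C26 libraries, against -0.12 to 0.10 in sham. All splenic C26 libraries were above all sham libraries on this mean, and replicate 1 was nearest to them. At the level of single genes, splenic C26 and sham did not overlap for 8 of the 20 genes, all of them higher in splenic C26, where 21.1% of all genes were higher without overlap and 21.1% lower.

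The 6 cytosolic genes that did not pass in splenic C26 were Dars, Farsa, Hars, Rars, Wars and Yars, for aspartate, phenylalanine, histidine, arginine, tryptophan and tyrosine. Their log2 fold changes lay between -0.09 ± 0.10 (Rars) and 0.14 ± 0.08 (Wars). The level of Rars was 50, 58.2, 54.5 and 46.0 CPM in splenic C26, against 55.9, 50.8, 56.6 and 59.3 CPM in sham. Phenylalanine tRNA is charged by an enzyme made of 2 kinds of subunit, and their genes had unequal values. Farsb, for the beta subunit, rose by 0.74 ± 0.17 (adjusted p = 0.00282), while Farsa, for the alpha subunit, had 23.9, 22, 21.9 and 21.1 CPM in splenic C26, against 18.6, 19.1, 21.5 and 23.8 CPM in sham, a log2 fold change of 0.10 ± 0.10 (adjusted p = 0.441). The difference between the subunit genes was not tested.

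Among the mitochondrial genes Iars2, for isoleucine (chromosome 1, 185284726 to 185329396, minus strand), was the one that rose in splenic C26. It stood at 91.7, 134, 128 and 122 CPM in splenic C26, against 81.8, 86.8, 85.2 and 82.1 CPM in sham, with no overlap. The log2 fold change was 0.51 ± 0.12 (adjusted p = 0.00325). Part of the Iars2 transcript sequence, 21.6% of its 75-base stretches, also occurs in transcripts of the measured gene Rab3gap2, whose exons overlap, so its level is uncertain. Sars2, for serine (chromosome 7, 28741992 to 28753871, plus strand), had 11, 8.78, 8.70 and 6.95 CPM in splenic C26, against 13.2, 15.5, 13.9 and 15.7 CPM in sham. Every splenic C26 library was below every sham library, and Sars2 fell by 0.72 on the log2 scale (SE 0.20, adjusted p = 0.00799). Hars2, for histidine (chromosome 18, 36783008 to 36792562, plus strand), was at 14.2, 11.1, 8.56 and 9.90 CPM in splenic C26, against 17.2, 18, 15.7 and 18.2 CPM in sham, also without overlap. It fell by 0.66 (SE 0.19, adjusted p = 0.010). Hars2 and Hars are neighbours on opposite strands with overlapping exons, and 2.78% of the 75-base stretches of Hars2 are shared with Hars.

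Cars2, for cysteine, had 10.3, 12.1, 10.3 and 8.19 CPM in splenic C26, against 14.3, 13.4, 14.5 and 13.4 CPM in sham, and fell by 0.44 (SE 0.16, adjusted p = 0.0304). Vars2, the mitochondrial counterpart of the gene with the highest fold change, fell by 0.46 (SE 0.17, adjusted p = 0.0318), with 13.9, 17.9, 9.82 and 10.9 CPM in splenic C26, against 16.5, 18.6, 17.7 and 19.4 CPM in sham. Yars2, for tyrosine, fell by 0.52 (SE 0.17, adjusted p = 0.0202). The calls of these 3 rested on single libraries. That of Cars2 was lost without sham replicate 1 or 3 or splenic C26 replicate 3 or 4, that of Vars2 without sham replicate 2, 3 or 4 or splenic C26 replicate 3 or 4, and that of Yars2 without sham replicate 4 or splenic C26 replicate 3 or 4. The count of mitochondrial genes that fell depended on single libraries: it was 3 without sham replicate 3 or 4, and 2 without splenic C26 replicate 3 or 4. The count that rose was 3 without splenic C26 replicate 1. Sars2 and Iars2 kept their calls in all 29 alternatives tried, and Hars2 in all but the stricter threshold of 0.01.

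In subcutaneous C26 muscle, 15 of 20 cytosolic genes rose, 0 fell and 5 did not pass, where 27% of all genes tested rose and 23.1% fell. The median log2 fold change of the cytosolic set was 0.71 (range 0.06 to 2.12), against -0.02 over all genes. Of the mitochondrial genes 3 rose, 4 fell and 9 did not pass, with a median of -0.11 (range -0.79 to 0.72). With the same 4 libraries left out, and 3 control libraries that hold Alb kept, 15 cytosolic genes rose, 1 mitochondrial gene rose and 3 fell. The 14 cytosolic genes that rose in splenic C26 all rose in subcutaneous C26 as well, that is 100% of the splenic list and 93.3% of the subcutaneous list. The same share over all genes was not counted, so this overlap cannot be called particular to synthetases. The 2 comparisons use separate tumour and tumour-free libraries but share 1 estimate of the spread. The plot of fold changes sets both comparisons side by side for all members.

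**Figure D2:**
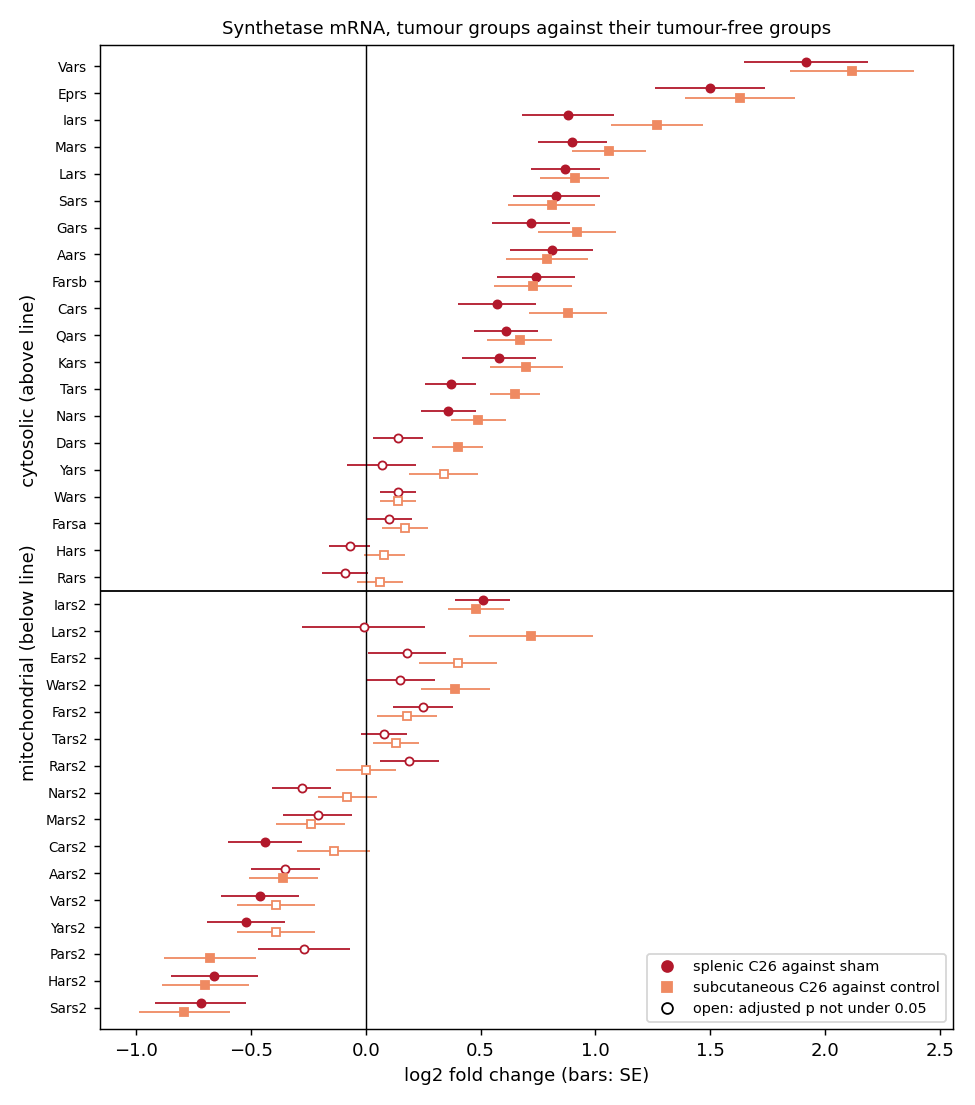
Log2 fold change of each synthetase gene (points) with its SE (bars), splenic C26 against sham as circles and subcutaneous C26 against control as squares; open symbols did not pass the threshold of 0.05. Vars and Eprs stand apart at 1.5 to 2.12, the other cytosolic genes lie between -0.09 and 1.27, and the mitochondrial genes lie on both sides of 0.

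Vars was at 168, 200, 85.4 and 151 CPM in subcutaneous C26, against 31.7, 31.6, 37.6 and 38.5 CPM in control. The lowest tumour library, replicate 3, was still above every control library, and the log2 fold change was 2.12 ± 0.27 (adjusted p = 7.53e-05). Eprs had 856, 1090, 666 and 899 CPM in subcutaneous C26, against 239, 229, 316 and 350 CPM in control, and rose by 1.63 ± 0.24 (adjusted p = 0.000196). Iars, the cytosolic isoleucine enzyme (chromosome 13, 49682100 to 49734267, plus strand), was measured at 248, 309, 175 and 231 CPM in subcutaneous C26, against 93.8, 83.5, 109 and 113 CPM in control. Its groups did not overlap, and it rose by 1.27 ± 0.20 (adjusted p = 0.000242), against 0.88 ± 0.20 in splenic C26. Mars rose by 1.06 ± 0.16, Gars by 0.92 ± 0.17 and Kars by 0.70 ± 0.16. Gars stood at 145, 179, 120 and 138 CPM in subcutaneous C26, against 76.7, 69.9, 77.7 and 83.5 CPM in control. Kars stood at 168, 186, 176 and 159 CPM in subcutaneous C26, against 90.8, 93.6, 120 and 121 CPM in control. Neither gene overlapped between these groups.

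Dars and Nars had the lowest fold changes among the cytosolic genes that rose in subcutaneous C26. Dars, for aspartate, had 81.5, 100, 85.5 and 88.2 CPM in subcutaneous C26, against 69.0, 64.0, 68.4 and 68.7 CPM in control, and rose by 0.40 ± 0.11 (adjusted p = 0.00734). Its call was lost without subcutaneous C26 replicate 2 and with upper-quartile scaling. In splenic C26 the value of Dars was 0.14 ± 0.11 (adjusted p = 0.285), and the difference between the 2 tumour effects was -0.26 ± 0.15 (unadjusted p = 0.110), so the data do not show that Dars differed between them. Nars was at 153, 180, 161 and 177 CPM in subcutaneous C26, against 111, 107, 124 and 136 CPM in control, a log2 fold change of 0.49 ± 0.12 (adjusted p = 0.005). Subcutaneous C26 and control did not overlap for 16 of the 20 cytosolic genes, all higher in subcutaneous C26, where 25.2% of all genes were higher without overlap and 20.7% lower. On the mean over the 20 genes the subcutaneous C26 libraries stood at 0.72, 0.92, 0.55 and 0.74 log2 over the control mean, against -0.11 to 0.11 in control.

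Farsa, Hars, Rars, Wars and Yars passed in neither comparison. Over all 16 libraries Farsa ranged from 18.1 to 24.3 CPM, Hars from 29.6 to 38.3, Rars from 46.0 to 61.4, Wars from 36.5 to 45.2 and Yars from 37.7 to 75.6. Yars came nearest to the threshold, in subcutaneous C26, with a log2 fold change of 0.34 ± 0.15 (adjusted p = 0.0758). It had 65.2, 75.6, 63.4 and 63.2 CPM in subcutaneous C26, against 52.8, 51.2, 51.9 and 55.0 CPM in control, and 63.2, 65.7, 44.3 and 37.7 CPM in splenic C26, against 45.0, 48.2, 49.9 and 57.5 CPM in sham. In splenic C26 the 4 libraries of Yars thus lay on both sides of the sham range.

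**Figure D3:**
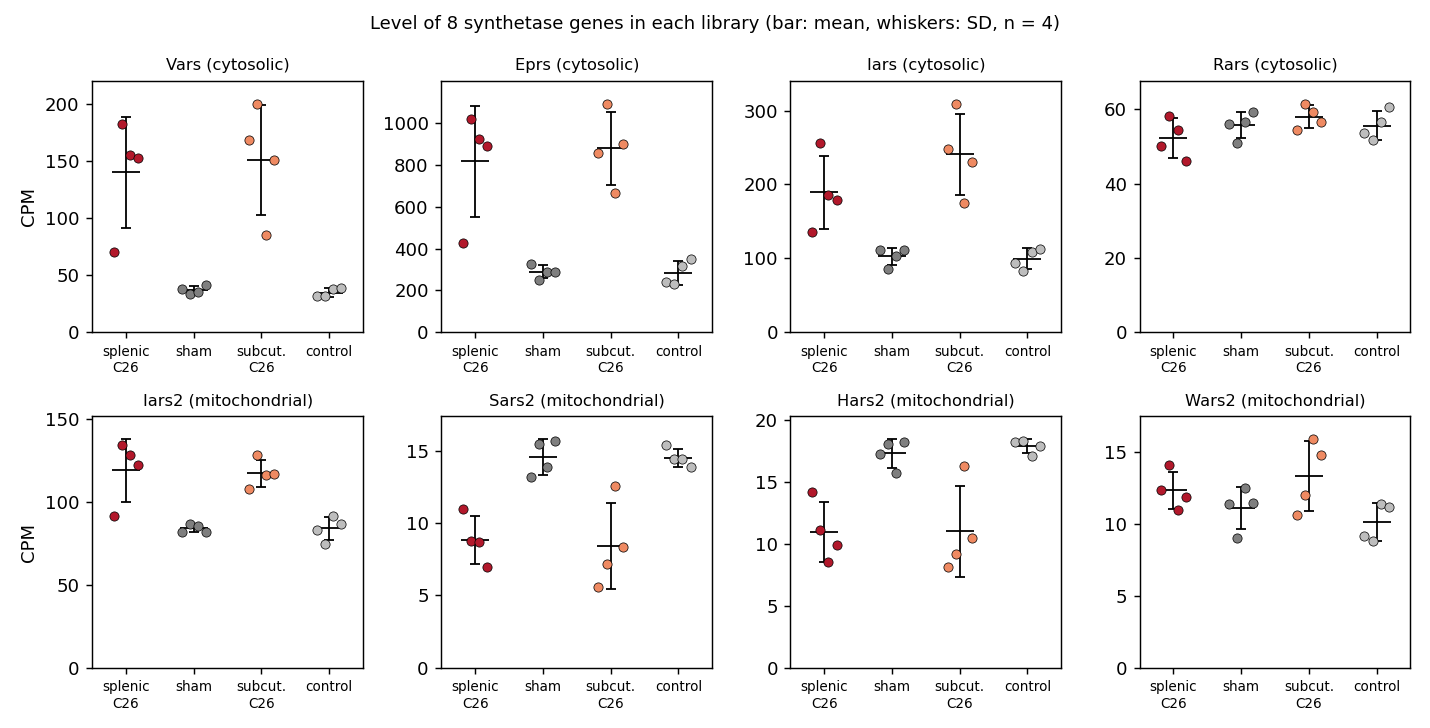
CPM of 8 synthetase genes in each of the 16 libraries (points), with the group mean (bar) and SD (whiskers, n = 4), in the order splenic C26, sham, subcutaneous C26 and control. Vars, Eprs and Iars are higher in both tumour groups, Rars lies between 46.0 and 61.4 CPM throughout, Iars2 is higher, and Sars2 and Hars2 are lower in the tumour groups.

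Sars2 had 5.61, 7.14, 12.6 and 8.33 CPM in subcutaneous C26, against 15.4, 14.4, 14.4 and 13.9 CPM in control. No library of the groups overlapped, and it fell by 0.79 (SE 0.20, adjusted p = 0.00485). Hars2 had 8.09, 9.14, 16.3 and 10.5 CPM in subcutaneous C26, against 18.2, 18.3, 17.1 and 17.9 CPM in control, and fell by 0.70 (SE 0.19, adjusted p = 0.00748). Replicate 3 was the highest tumour library for both genes and close to the control range. Pars2, for proline, had 1.82, 1.94, 3.06 and 1.96 CPM in subcutaneous C26, against 3.59, 3.49, 3.67 and 3.25 CPM in control, and fell by 0.68 (SE 0.20, adjusted p = 0.0125). Aars2, for alanine, fell by 0.36 (SE 0.15, adjusted p = 0.049), a call that 12 of 29 alternatives removed, among them the omission of each of 9 libraries (sham replicates 1, 3 and 4, control replicates 1, 3 and 4, subcutaneous C26 replicates 1, 2 and 4). The count of mitochondrial genes that fell in subcutaneous C26 was 7 without subcutaneous C26 replicate 3. Mean log2 levels over 15 mitochondrial genes (Lars2 left out) were -0.34, -0.20, 0.14 and -0.25 in the 4 subcutaneous C26 libraries, against -0.04 to 0.05 in control. In splenic C26 they were -0.14, -0.04, -0.24 and -0.31, against -0.04 to 0.03 in sham.

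Iars2 was at 108, 128, 116 and 117 CPM in subcutaneous C26, against 83.2, 74.8, 91.6 and 86.7 CPM in control, and rose by 0.48 ± 0.12 (adjusted p = 0.00461). Wars2, for tryptophan, had 10.6, 12.0, 15.9 and 14.8 CPM in subcutaneous C26, against 9.20, 8.82, 11.4 and 11.2 CPM in control. Its groups overlapped, the log2 fold change was 0.39 ± 0.15 (adjusted p = 0.045), and 15 of 29 alternatives removed the call, with adjusted p of up to 0.424. Among them were the omission of sham replicate 1, 3 or 4, splenic C26 replicate 4, subcutaneous C26 replicates 2, 3 or 4, and control replicate 1 or 2. The third gene past the threshold was Lars2, for leucine, which is described separately because its reads moved with ribosomal RNA. The count of mitochondrial genes that rose in subcutaneous C26 was 1 without control replicate 1 or 2 and without subcutaneous C26 replicate 2 or 4.

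The mitochondrial genes that passed in neither comparison were Ears2 (7.81 to 14.3 CPM over the 16 libraries), Fars2 (16.9 to 26.2), Mars2 (6.15 to 10.2), Nars2 (7.73 to 11.3), Rars2 (13.9 to 22.1) and Tars2 (22.1 to 29.2). Their log2 fold changes ran from -0.28 (Nars2) to 0.25 (Fars2) in splenic C26 and from -0.24 (Mars2) to 0.40 (Ears2) in subcutaneous C26. Fars2 shares 7.9% of its 75-base stretches with the measured genes Nrn1 and Lyrm4. Of the mitochondrial genes that fell, Sars2 and Hars2 fell in both comparisons, 40% of the splenic list and 50% of the subcutaneous list. Here too the share over all genes was not counted.

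The tumour effects were then compared with each other, as splenic C26 minus sham against subcutaneous C26 minus control. No synthetase passed in edgeR's quasi-likelihood test (0 of 36, and 0 of 36 at an unadjusted p under 0.05), and 0% of all genes tested did (0 of 13320, 851 at an unadjusted p under 0.05). DESeq2 called 86 of all genes and 0 synthetases, and limma-voom called 0 genes. The differences between the effects ranged from -0.73 ± 0.38 (Lars2) to 0.41 ± 0.28 (Pars2) on the log2 scale. For Vars the difference was -0.20 ± 0.36 and for Eprs -0.13 ± 0.34, so these data do not set narrow limits on it. Between the tumour-free groups, sham against control, 0 of 36 synthetases passed in edgeR (0 at an unadjusted p under 0.05), where 0.00751% of all genes did. These groups carry different title prefixes, so that operation and whatever the prefix marks cannot be told apart here. Their log2 fold changes lay between -0.13 and 0.13. DESeq2 and limma-voom also called 0 synthetases there.

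Cytosolic and mitochondrial genes for the same amino acid formed 17 pairs, with Eprs set against both Ears2 and Pars2, and Fars2 against both Farsa and Farsb. The cytosolic log2 fold change was above the mitochondrial in 14 pairs in splenic C26 and in 15 pairs in subcutaneous C26. The median difference within pairs was 0.64 in splenic C26 and 0.78 in subcutaneous C26, on the log2 scale. Vars and Vars2 were farthest apart, by 2.37 in splenic C26 and 2.5 in subcutaneous C26. The ratio of Vars to Vars2 CPM was 5.08, 10.2, 15.8 and 14.0 in the splenic C26 libraries, against 1.80 to 2.31 in sham. It was 12.8, 15.6, 5.37 and 13.8 in subcutaneous C26, against 1.65, 1.99, 2.35 and 2.17 in control. The serine pair was also widely set, with a Sars to Sars2 ratio of 8.25, 20.6, 19.5 and 22.7 in splenic C26, against 5.94, 5.34, 5.92 and 5.87 in sham, and of 27.2, 25.9, 9.13 and 20.2 in subcutaneous C26, against 5.35, 5.70, 6.42 and 6.98 in control. In both pairs every tumour library was above every tumour-free library. The reversed pairs were Rars with Rars2, Wars with Wars2 and Farsa with Fars2 in splenic C26, and Wars with Wars2 and Farsa with Fars2 in subcutaneous C26. The differences within pairs were not tested.

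**Figure D4:**
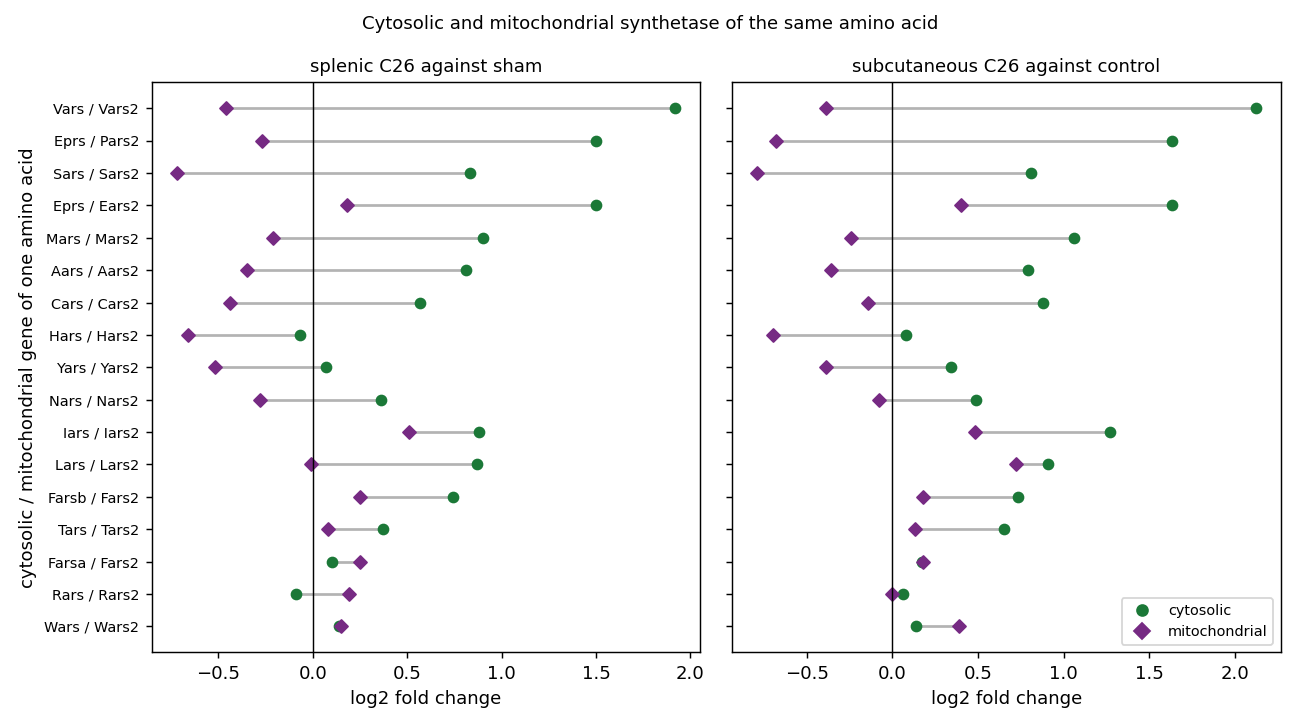
Log2 fold change of the cytosolic (circle) and the mitochondrial (diamond) gene of each amino acid, joined by a line, for splenic C26 against sham (left) and subcutaneous C26 against control (right). Pairs run from Vars and Vars2 at the top, 2.37 and 2.5 apart, down to pairs such as Wars and Wars2, whose points differ by 0.25 or less.

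Within the cytosolic set the calls were spread over its known divisions. Of the 8 genes whose products sit in the multisynthetase complex (Dars, Eprs, Iars, Kars, Lars, Mars, Qars and Rars), 6 rose in splenic C26 and 7 in subcutaneous C26, with medians of 0.74 and 0.80. Of the 12 outside it, 8 rose in each, with medians of 0.47 and 0.69. Synthetases fall into a pair of unrelated structural classes by the fold of their catalytic domain. With Eprs, whose glutamate part is class I and whose proline part is class II, counted in class I, 7 of 10 class I cytosolic genes rose in splenic C26 and 7 in subcutaneous C26, and of 10 class II genes 7 and 8. Of 9 class I mitochondrial genes, 1 rose and 3 fell in splenic C26 and 3 rose and 0 fell in subcutaneous C26. Of 7 class II mitochondrial genes, 2 fell in splenic C26 and 4 in subcutaneous C26, and 0 rose. Over all genes, 28.1% rose and 23.9% fell in splenic C26, and 27% rose and 23.1% fell in subcutaneous C26. The mitochondrial counts of 2 of 7 and 3 of 9 stand close to these shares. Among the class I mitochondrial genes that rose in subcutaneous C26 were Lars2 and Wars2, whose calls were lost in 11 and 15 of 29 alternatives. These divisions were not tested against each other.

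The multisynthetase complex is held together by scaffold proteins, and 1 of their genes fell. Aimp2, which encodes a scaffold on which several of its enzymes assemble, had 19.2 to 55.7 CPM in splenic C26, against 177 to 226 CPM in sham, and 34.5 to 70.3 CPM in subcutaneous C26, against 190 to 231 CPM in control. Its log2 fold change was -2.49 ± 0.27 in splenic C26 (adjusted p = 3.14e-05) and -2.15 ± 0.27 in subcutaneous C26 (adjusted p = 6.8e-05), and its groups did not overlap. Aimp1 had log2 fold changes of 0.16 ± 0.15 in splenic C26 and 0.13 ± 0.15 in subcutaneous C26, and Eef1e1, which encodes AIMP3, had -0.29 ± 0.17 and 0.02 ± 0.17, none of which passed. So 1 of 3 scaffold genes, Aimp2, fell in each comparison and 0 rose. Over all genes, 23.9% fell in splenic C26 and 23.1% in subcutaneous C26, so the count says nothing about the list beyond Aimp2.

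Levels between genes were compared per kilobase, on the log2 scale of the authors' second table, in the 8 tumour-free libraries. Eprs was highest at 5.87 ± 0.22 (SD over 8 libraries), then Lars2 at 5.72 ± 0.22, Kars at 5.52 ± 0.17, Nars at 5.50 ± 0.13 and Aars at 5.08 ± 0.10. Eprs and Lars2, and Kars and Nars, did not differ beyond their spread. Among the cytosolic genes Vars was the lowest, at 3.09, although its fold change in the tumour groups was the highest. The lowest of all were Ears2 at 0.52 ± 0.21 and Pars2 at 0.13 ± 0.19. The median over genes was 4.53 for the cytosolic set and 2.62 for the mitochondrial set (2.49 without Lars2), against 2.19 over all 13320 genes. Reads of Lars2 moved with ribosomal RNA, as described below, so its rank is uncertain. The length behind this scale is not stated in the sources used here, so small differences between genes should not be read from it.

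Lars2 stood at 192, 301, 305 and 542 CPM in subcutaneous C26, against 158, 172, 229 and 253 CPM in control, a log2 fold change of 0.72 ± 0.27 (adjusted p = 0.037). In splenic C26 it had 143, 181, 278 and 236 CPM, against 226, 213, 204 and 198 CPM in sham, with a log2 fold change of -0.01 ± 0.27. In both comparisons the groups overlapped. Its reads moved with Rn45s, the feature of the ribosomal RNA precursor: over the 16 libraries there were 1.82 to 3 Lars2 reads for every 100 Rn45s reads. The highest ratio was 1.65 times the lowest, while Lars2 itself spanned 3.78-fold in CPM. For every other member the ratio to Rn45s spanned 3.89-fold or more. Wars2 and Nars, at 3.89-fold, spanned only 1.81-fold and 1.68-fold in CPM, so their ratios mostly carry the span of Rn45s and show no such following. Subcutaneous C26 replicate 4 was highest for both, with 542 CPM of Lars2 and 24540 CPM of Rn45s. The annotated GENCODE transcripts of Lars2 share no exact 75-base stretch with those of other genes. That search missed shorter and inexact matches, and whether it held the ribosomal RNA precursor is not known. The part of ribosomal RNA reads in the Lars2 values was not tested. The call of Lars2 was lost in 11 of 29 alternatives, including the omission of control replicate 1 or 2 or of subcutaneous C26 replicate 2 or 4, with adjusted p of up to 0.287. Without Lars2, 2 of 15 mitochondrial genes rose and 4 fell in subcutaneous C26.

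**Figure D5:**
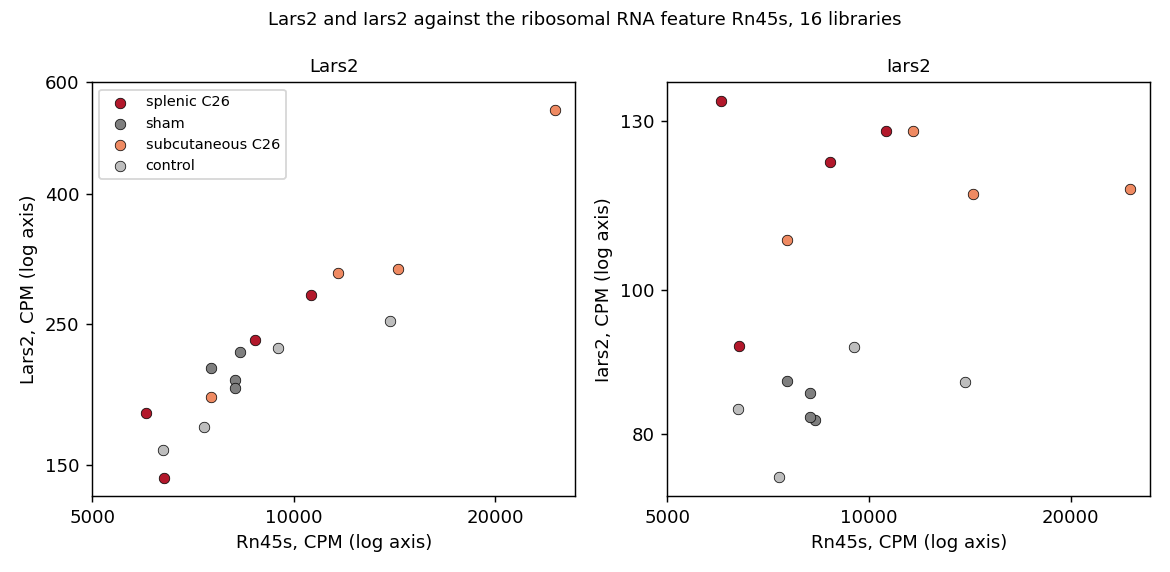
CPM of Lars2 (left) and of Iars2 (right) against CPM of the ribosomal RNA feature Rn45s in the 16 libraries, with logarithmic axes and colours for the groups. Lars2 rises with Rn45s up to 542 CPM in the subcutaneous C26 library with 24540 CPM of Rn45s, while Iars2 is at 91.7 CPM or more in the tumour libraries and at 91.6 CPM or less in the tumour-free ones.

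Promoter sequences were examined because many of the cytosolic genes moved together. RefSeq windows on GRCm38.p6, 300 bases long (250 before and 50 from the start of the gene), matched 27 of the 36 members. The windows did not match Cars, Hars, Hars2, Lars, Nars, Pars2, Rars, Vars and Wars. The C/EBP-ATF response element, to which ATF4 binds in mammalian cells, was searched as TGATGNAA on both strands. It occurred in 5 of 13 cytosolic genes (Aars, Gars, Iars, Tars and Yars) and in 0 of 14 mitochondrial genes, against 3.97% of all 32851 windows and 2.75% of measured genes. The matching stretches are printed here 5′ to 3′ on the strand of the gene, with the element in capitals, so that its place relative to the start can be seen.
Aars: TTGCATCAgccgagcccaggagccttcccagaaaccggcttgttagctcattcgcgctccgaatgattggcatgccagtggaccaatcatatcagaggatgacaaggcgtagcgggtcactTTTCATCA
Gars: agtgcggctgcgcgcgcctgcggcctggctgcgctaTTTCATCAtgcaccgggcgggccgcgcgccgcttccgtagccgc
Iars: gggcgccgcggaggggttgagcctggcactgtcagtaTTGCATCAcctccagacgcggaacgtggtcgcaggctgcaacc
Tars: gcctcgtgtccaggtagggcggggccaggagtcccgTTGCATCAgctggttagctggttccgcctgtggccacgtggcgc
Yars: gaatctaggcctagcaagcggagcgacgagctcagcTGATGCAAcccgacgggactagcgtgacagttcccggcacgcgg
These stretches lie at chr8:111033730-111033858 (Aars, plus strand), chr6:55037935-55038014 (Gars, plus), chr13:49682100-49682179 (Iars, plus), chr15:11399630-11399709 (Tars, minus) and chr4:129189870-129189949 (Yars, plus). Counted with the first base of the RefSeq gene as 0, the matches begin at -112 and 9 in Aars, -30 in Gars, 7 in Iars, -15 in Tars and 3 in Yars. RefSeq starts can differ from the GENCODE gene coordinates given above, as for Iars. Of the 5 genes with a match, 4 rose in each comparison (Aars, Gars, Iars and Tars), with medians of 0.72 in splenic C26 and 0.79 in subcutaneous C26. Of the 8 cytosolic genes with a window and no match, 6 rose in splenic C26 and 7 in subcutaneous C26, with medians of 0.68 and 0.72. Eprs is among the genes without a match in this window, and Yars, with a match, did not pass in either comparison.

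Another pair of motifs was searched in the same windows. The E-box CACGTG, bound by MYC and related factors, occurred in 4 of 13 cytosolic genes (Aars, Farsb, Iars and Tars) and in 1 of 14 mitochondrial genes (Ears2), against 7.15% of all windows and 11.7% of measured genes. The core of the NRF1 element was searched as GCGCATGC. NRF1 is a transcription factor known to regulate nuclear genes of mitochondrial proteins. It occurred in 0 of 13 cytosolic genes and in 3 of 14 mitochondrial genes (Rars2, Vars2 and Wars2), against 2.71% of all windows and 5.73% of measured genes. The mitochondrial matches are shown for contrast with the cytosolic promoters, with the motif, read from either strand, in capitals.
Rars2: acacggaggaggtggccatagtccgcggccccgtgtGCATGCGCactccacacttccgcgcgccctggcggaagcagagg
Vars2: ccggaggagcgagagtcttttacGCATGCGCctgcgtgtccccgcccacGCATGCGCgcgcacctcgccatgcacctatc
Wars2: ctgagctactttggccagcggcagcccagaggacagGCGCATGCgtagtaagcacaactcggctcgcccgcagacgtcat
They lie at chr4:34614870-34614949 (Rars2, plus strand), chr17:35667582-35667661 (Vars2, minus) and chr3:99140990-99141069 (Wars2, plus), with matches that begin at -51 in Rars2, at -46 and -20 in Vars2 and at -64 in Wars2. Of these 3 genes, Vars2 fell in splenic C26 and Wars2 rose in subcutaneous C26. All matches are descriptions of the letters in these windows and not of binding.

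Genes around the synthetases were described from lists of known function. Their counts stand beside 28.1% of all genes that rose and 23.9% that fell in splenic C26, and 27% and 23.1% in subcutaneous C26. Of 9 genes of amino acid sensing and eIF2 kinases, 6 rose and 1 fell in splenic C26, and 7 rose and 2 fell in subcutaneous C26. The kinase genes themselves went both ways. Eif2ak4, for GCN2, rose by 0.78 ± 0.21 and 0.92 ± 0.21, while Eif2ak2 had log2 fold changes of -1.04 ± 0.21 and -1.12 ± 0.21, which passed. Eif2ak1 (0.47 ± 0.12) and Eif2ak3 (-0.49 ± 0.19) passed only in subcutaneous C26. Genes of the list that are not kinases also rose, among them Ppp1r15a, by 2.87 ± 0.37 and 2.09 ± 0.36. Gcn1l1, which encodes the GCN1 protein that activates GCN2 on ribosomes, rose by 1.67 ± 0.22 in splenic C26, to 129 to 262 CPM, against 59.2 to 72.8 CPM in sham, and by 1.75 ± 0.22 in subcutaneous C26. Impact, whose product competes for GCN1 and restrains GCN2, rose by 1.87 ± 0.18 in splenic C26 and by 2.65 ± 0.18 in subcutaneous C26. Impact had 46.4 to 81.3 CPM in splenic C26, against 17.8 to 19.5 CPM in sham, and 78.8 to 132 CPM in subcutaneous C26, against 15.8 to 19.0 CPM in control.

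Atf4 mRNA had 265 to 616 CPM in splenic C26, against 160 to 198 CPM in sham, and 326 to 428 CPM in subcutaneous C26, against 170 to 186 CPM in control. It rose by 1.23 ± 0.20 in splenic C26 (adjusted p = 0.000279) and by 1.1 ± 0.20 in subcutaneous C26 (adjusted p = 0.000538). Of 24 measured genes in a list of Atf4 and its amino acid response targets other than synthetases, 9 rose and 6 fell in splenic C26 and 8 rose and 3 fell in subcutaneous C26, with medians of 0.29 and 0.11. In splenic C26 the share of the list that fell was close to the 23.9% of all genes. Eif4ebp1, which encodes a translation repressor, rose by 3.69 ± 0.40 in splenic C26 and by 3.67 ± 0.40 in subcutaneous C26, and Cebpb, for a transcription factor that pairs with ATF4, rose by 1.99 ± 0.28 and 2.09 ± 0.28. Asns, for asparagine synthetase, a widely used ATF4 target, had 3.76 to 8.62 CPM in splenic C26, against 1.98 to 8.00 CPM in sham, and 5.38 to 8.70 CPM in subcutaneous C26, against 1.76 to 7.33 CPM in control. Its log2 fold changes of 0.31 ± 0.46 and 1.01 ± 0.46 did not pass (adjusted p = 0.585 in splenic C26 and 0.0798 in subcutaneous C26). The list held genes that rose and genes that fell. Ddit3, Psph and Pycr1 fell in both comparisons. Psph had log2 fold changes of -1.68 ± 0.33 in splenic C26 and -1.29 ± 0.33 in subcutaneous C26, and Pycr1 had -1.41 ± 0.35 and -0.97 ± 0.34. Aldh18a1 (-1.63 ± 0.28), Phgdh (-1.44 ± 0.48) and Mthfd2 (-1.23 ± 0.23) fell in splenic C26 and did not pass in subcutaneous C26. Their levels were low, with sham means of 2.59 (Phgdh) to 4.60 CPM (Aldh18a1).

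Of 19 measured genes of tRNA end maturation, export and peptidyl-tRNA release, 12 rose and 1 fell in splenic C26, and 10 rose and 1 fell in subcutaneous C26. Elac2, which removes the tail behind tRNAs, rose by 1.26 ± 0.21 in splenic C26 and by 1.32 ± 0.21 in subcutaneous C26. Rpp38, a subunit of the ribonuclease that trims the front of tRNAs, rose by 1 ± 0.16 and 1.02 ± 0.16. The genes of its subunits did not all move together. Pop1, Pop4 and Rpp40 also rose in both comparisons, while Pop5 had log2 fold changes of -0.92 ± 0.20 and -0.69 ± 0.20, which passed. Pop7, Rpp14 and Rpp21 had negative values that did not pass. Of 8 genes of cytosolic translation elongation, which include the kinase gene Eef2k, 4 rose and 0 fell in splenic C26 and 3 rose and 0 fell in subcutaneous C26. Eef2, the translocation factor, was among them, with 2110 to 3640 CPM in splenic C26, against 1300 to 1690 CPM in sham, and rose by 1.05 ± 0.18 there and by 1.16 ± 0.18 in subcutaneous C26. Eef1d, of the factor that reloads elongation factor 1 with GTP, rose by 0.63 ± 0.14 in splenic C26 and 0.67 ± 0.14 in subcutaneous C26.

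Of 10 mitochondrial initiation, elongation and release genes 1 rose and 4 fell in splenic C26, and 1 rose and 3 fell in subcutaneous C26. Mrrf, the ribosome recycling factor, rose by 0.52 ± 0.11 and 0.59 ± 0.11, and Mtif2, the initiation factor, had log2 fold changes of -0.61 ± 0.14 and -0.64 ± 0.14, all of which passed. Of 77 mitochondrial ribosomal protein genes 15 rose and 18 fell in splenic C26 (median -0.02), and 10 rose and 21 fell in subcutaneous C26 (median -0.12). The share that rose was below that of all genes in both comparisons (28.1% and 27%), and the share that fell in splenic C26 was close to the 23.9% of all genes. Of 11 synthetase relatives and charging helpers that the symbol rule does not reach, 1 rose and 4 fell in splenic C26 and 0 rose and 4 fell in subcutaneous C26. Qrsl1, a subunit of the amidotransferase that makes mitochondrial glutamine tRNA in place of a dedicated synthetase, had log2 fold changes of -1.08 ± 0.31 in splenic C26 and -1.31 ± 0.31 in subcutaneous C26, and passed in both. Dtd1, which removes wrongly attached D-amino acids from tRNA, rose by 0.63 ± 0.16 in splenic C26, against 0.38 ± 0.16 in subcutaneous C26, which did not pass (adjusted p = 0.0533). The medians and counts of these lists were not tested against other genes.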

How the data were processed

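Per the labels' protocols, quadriceps RNA of all samples was isolated and sequenced together, with paired reads of 75 bases (Illumina HiSeq). The deposited table of counts holds raw reads per gene symbol, made with STAR and featureCounts per the labels. The submitters' processing notes name FastQC, STAR, edgeR and the mm10 build. No source used here states versions, annotation or strand setting. The authors' second deposited table holds log2 values that equal log2 CPM minus a constant per gene (residual SD 0.00101 over 6742 genes). That constant is within 0.1 of the log2 length of the longest GENCODE transcript for 55.7% of 6542 genes, so the values were read as log2 per kilobase. From the counts, 4013 blank lines without a gene were left out; filterByExpr removed 0 of 13320 genes, and every gene had at least 0.502 CPM in 4 libraries.

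Groups came from the tumour label; replicate numbers follow the order of the samples and pair nothing. Chi-square tests of counts between libraries within a group gave 12.9 or more per degree of freedom, so no pair differed by counting noise alone. Such a test cannot tell separate animals from separate preparations of the same sample. The test was edgeR's quasi-likelihood test (version 4.0.16, R 4.3.3) with TMM factors and robust dispersion, all 16 libraries in a single fit with a mean for each group, and Benjamini-Hochberg adjustment. The SE was the log2 fold change divided by the square root of F. Scripts were tested on simulated data. Alternatives were RLE and upper-quartile scaling, other filters, DESeq2 1.42.0, limma 3.58.1 (voom, and trend on the deposited log2 values), fits of 8 libraries, removal of the 10 most abundant genes, a threshold of 0.01 and omission of each library. After seeing the data, removal of Rn45s and of 4 libraries (over 10 CPM of Ngp or Mki67, or of Alb outside control, where all 4 libraries exceed it) was added.

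A further gene found by the symbol rule is not reported here; it stayed in the fit over all genes. The members, lists and the rule for named genes were chosen with earlier results of these data known. The rule gave library values, per comparison, for the 3 highest and 2 lowest cytosolic and the 2 highest and 2 lowest mitochondrial log2 fold changes that passed, and for Kars and Gars; other library values were added after they were seen. From each list it named the 2 genes with the smallest p, with Atf4, Asns, Aimp1, Aimp2 and Eef1e1. Further genes of the lists were named after their values were seen. Gene coordinates are mm10 from GENCODE M21, while promoter windows and match positions follow RefSeq gene starts.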

Additional observations from a re-analysis of the deposited data

Results flagged for a closer look

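Of 144 groups of 4 libraries (36 genes in 4 groups), 6 held a library set apart from the other 3 by Dixon's test. Chance flags about 1 in 20 groups. Eprs in splenic C26 replicate 1 was at 427 CPM, against 891 to 1020 CPM in the other 3 libraries of that group. Pars2 was at 3.22 CPM in the same library, against 2.40 to 2.49 CPM in the others. In subcutaneous C26 replicate 3, Yars2 was at 15.8 CPM, against 9.48 to 10.1 CPM, and Pars2 was at 3.06 CPM, against 1.82 to 1.96 CPM. Both libraries lay nearer to the tumour-free libraries than the rest of their group for these genes. Yars in subcutaneous C26 replicate 2 was at 75.6 CPM, against 63.2 to 65.2 CPM in the others, and Dars in control replicate 2 was at 64.0 CPM, against 68.4 to 69.0 CPM.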

How the results depend on the processing

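Cytosolic genes that rose numbered 13 to 14 in splenic C26 and 14 to 16 in subcutaneous C26 when each library was left out, and 11 and 13 with upper-quartile scaling. Under that scaling the log2 fold changes over all genes had a median of -0.236 in splenic C26 and -0.26 in subcutaneous C26, and 2 cytosolic genes (Hars and Rars) fell in splenic C26. No synthetase called in a tumour comparison changed direction in the alternatives tried. The mitochondrial counts were less stable. In splenic C26 the 5 that fell were 7 with upper-quartile scaling or a minimum of 5 CPM, 3 without the 4 libraries left out for their Ngp, Mki67 or Alb, a choice made after the data were seen, 1 at a threshold of 0.01 and 2 to 7 with each library left out. The 1 that rose was 2 without those 4 libraries and 1 to 3 with each library left out. In subcutaneous C26 the 3 that rose were 1 with upper-quartile scaling, a minimum of 5 CPM, limma-trend, a threshold of 0.01 or without those 4 libraries, and 1 to 4 with each library left out. The 4 that fell were 7 with upper-quartile scaling, 2 at a threshold of 0.01 and 3 to 7 with each library left out. The cause was not tested. Synthetases called between the tumour effects, or between sham and control, numbered 0 in every alternative, while DESeq2 called 86 and 58 of all genes there, against 0 and 1 with edgeR. No paired analysis was possible because the labels give no replicate numbers that groups share. Most mitochondrial genes had lower CPM than the cytosolic ones, but their SEs covered a similar range. In splenic C26 the SEs ran from 0.10 (Tars2) to 0.27 (Lars2), against 0.08 (Wars) to 0.27 (Vars) in the cytosolic set.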
